A study of Mus musculus with 6 samples.

Results

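The islet RNA-seq held 9 genes of blood cells, Cd79a, Cd79b, Ms4a1, Cd22, Cd37, Cd3e, Cd3g, Ptprc and Ltf, which were taken by symbol from the 19342 genes of the deposited count table and followed in every library as a measure of lymphoid and other leukocyte RNA in the islet preparations. All 9 were listed and all 9 had counts. The 6 libraries came from C57Bl/6 mice aged 3 months, with 3 libraries from wild type mice (FXR+/+, labelled WT) and 3 from mice labelled FXR knockout (FXR-/-), which lack FXR (Nr1h4), a bile acid receptor. Each genotype had 1 female library (female 1) and 2 male libraries (male 1 and male 2). Islets had been released from the pancreas with collagenase P, which also frees other pancreatic and lymphoid cells, and no cell sort is described. The sources do not state whether a library was made from 1 mouse or from several, or which part of Nr1h4 the knockout removes, so the p-values measure the spread between these libraries.

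B cells and T cells each sense antigen through a surface receptor that cannot signal alone. Cd79a and Cd79b, the paired signalling chains of the B cell receptor, and Cd3e and Cd3g, chains of the CD3 complex of the T cell receptor, carry in their tails the immunoreceptor tyrosine-based activation motif (ITAM), whose tyrosines are phosphorylated by Src family kinases. Cd22, an inhibitory lectin of B cells, carries the opposing inhibitory motif (ITIM), Ms4a1 encodes CD20, Cd37 is a tetraspanin of mature B cells, Ptprc encodes CD45, the phosphatase of nearly all white blood cells that activates Src family kinases, and Ltf encodes lactoferrin, an iron-binding protein of neutrophil granules and of many glandular epithelia. Lymphocytes are scarce in healthy islets, and pancreatic lymph nodes lie close to the gland.

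The coding bases of the ITAMs are shown because they are what the 4 receptor chains have in common. They were read 5′ to 3′ on the coding strand from the GENCODE vM21 transcripts (GRCm38), with the 2 tyrosine codons in capitals. The pattern searched was a tyrosine codon, any 2 codons and a leucine or isoleucine codon, followed after 6 to 8 codons by the same arrangement, and 2.89% of 21562 coding genes held a match. The runs are split by an intron at chr7:24901296-24901469 (plus strand, exons 4 and 5 of Cd79a), chr11:106311867-106312012 (minus strand, exons 5 and 6 of Cd79b), chr9:44999549-45000440 (minus strand, exons 7 and 8 of Cd3e) and chr9:44970735-44971268 (minus strand, exons 5 and 6 of Cd3g).
Cd79a: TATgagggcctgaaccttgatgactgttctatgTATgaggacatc
Cd79b: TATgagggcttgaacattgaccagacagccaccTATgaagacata
Cd3e: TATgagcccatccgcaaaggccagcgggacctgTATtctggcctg
Cd3g: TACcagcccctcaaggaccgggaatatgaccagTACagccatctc
The Cd79a and Cd79b runs were identical at 31 of 45 bases (68.9%), and the Cd3e and Cd3g runs at 21 of 45 (46.7%). The 4 pairs across the receptors were identical at 15 to 23 bases (33.3 to 51.1%), with Cd79b and Cd3e at the top.

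In Cd22 the inhibitory pattern (a leucine, isoleucine or valine codon, any codon, a tyrosine codon, any 2 codons and a leucine or valine codon) matched 4 times, and 33.7% of coding genes held at least 1 match. The 2 matches in its last exon are shown, with the tyrosine codon in capitals, because the counts of that exon are described below apart from the rest of the gene. They lie at chr7:30866600-30866617 and chr7:30866540-30866557 on the minus strand.
Cd22 upstream run: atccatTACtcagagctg
Cd22 downstream run: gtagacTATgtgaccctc

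Library totals ran from 20629306 to 30139235 counts, so 3 counts, taken as the limit of detection, corresponded to 0.0947 to 0.158 CPM (counts in 1000000 counts of a library, with library sizes scaled by TMM). Nr1h4 itself was counted 333, 274 and 386 times in FXR+/+ and 140, 145 and 138 times in FXR-/-, lower in the knockout but not absent. The insulin genes Ins1 and Ins2 took 17.5 to 23.9% of the counts. A list of 15 acinar genes took 12.0% in FXR+/+ male 1, 12.4% in FXR-/- male 1 and 4.23 to 7.82% in the other libraries. In bulk tissue, fewer cells of a type and less RNA per cell cannot be told apart.

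Compared per kilobase of exon, the mean level over the 6 libraries was 14.4 CPM per kb for Cd79a and 0.741 or less for the other genes. Ltf (0.741) and Cd79b (0.737) came next, followed by Ptprc (0.441), Cd22 (0.423), Cd37 (0.373), Ms4a1 (0.154), Cd3g (0.150) and Cd3e (0.121). Below Cd79a, the ranges over the libraries of all neighbours in this order overlapped. The genes fell into distinct profiles across the libraries, shown in the plot of their levels by library.

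**Figure D1:**
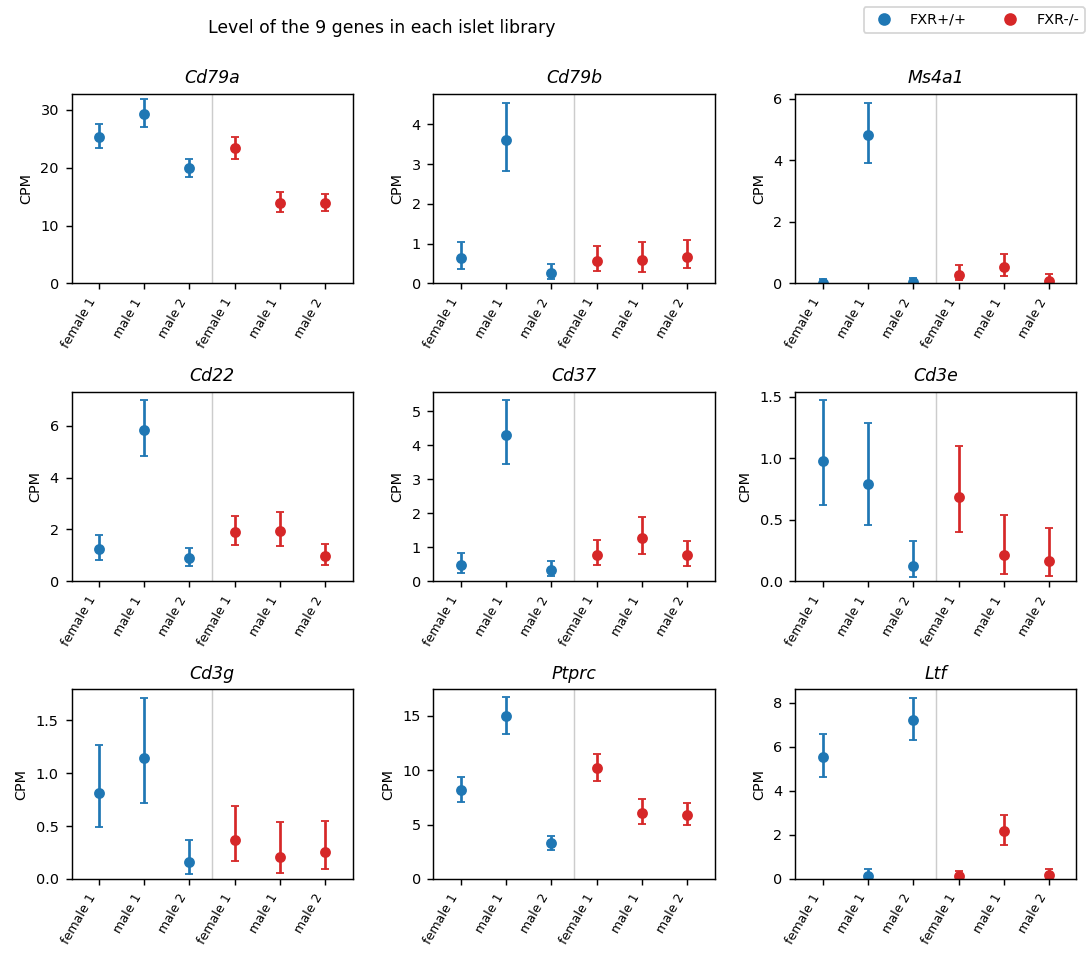
Level of each of the 9 genes (CPM, linear axis from 0) in the 3 FXR+/+ (blue) and 3 FXR-/- (red) libraries; bars are exact 95% Poisson intervals, which cover counting error only. Cd79b, Ms4a1, Cd22 and Cd37 stood high in FXR+/+ male 1 alone, Cd3e and Cd3g in FXR+/+ female 1 and male 1 with FXR-/- female 1 next, and Ltf in FXR+/+ female 1 and male 2.

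Among the B cell genes, Cd79b had 15, 73 and 8 counts in FXR+/+ female 1, male 1 and male 2 and 14, 11 and 16 in the FXR-/- libraries in the same order. Its level in FXR+/+ male 1 was 3.62 CPM (95% counting interval 2.84 to 4.55), which was 5.37 times that of the next library. The remaining 5 libraries lay between 0.253 and 0.673 CPM, and the genotypes overlapped.

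Ms4a1, the CD20 gene, was counted 0, 97 and 1 times in FXR+/+ and 7, 10 and 2 times in FXR-/-. The 97 counts of FXR+/+ male 1 (4.81 CPM, interval 3.90 to 5.86) were 9.14 times the next library on the CPM scale. In FXR+/+ female 1 no read was counted, where 3 counts, the limit of detection, correspond to 0.128 CPM and the exact two-sided interval reaches 0.157 CPM. Ms4a1 was therefore the gene that separated FXR+/+ male 1 most widely from the rest, but it did not pass the filter on low counts and was not tested.

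Cd37 also peaked in FXR+/+ male 1, with 11, 87 and 10 counts in FXR+/+ and 19, 24 and 18 in FXR-/-. Cd22 had 29, 118 and 28 counts in FXR+/+ and 47, 37 and 23 in FXR-/-. FXR+/+ male 1 exceeded the next library 3.42-fold for Cd37 and 3.01-fold for Cd22, and in both cases its counting interval lay above the interval of every other library. The other 2 FXR+/+ libraries held the 2 lowest levels of Cd37, and FXR+/+ male 2 the lowest of Cd22, so the FXR+/+ group contained both the top and the bottom of the range.

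Cd79a did not share this profile. Its reads numbered 595, 592 and 631 in FXR+/+ against 576, 265 and 331 in FXR-/-, corresponding to 25.4, 29.3, 19.9, 23.3, 13.9 and 13.9 CPM. FXR+/+ male 1 was again highest, but only 1.16 times the next library. The 2 FXR-/- male libraries were the lowest, with counting intervals of 12.3 to 15.7 and 12.5 to 15.5 CPM that lay below those of all FXR+/+ libraries, while FXR-/- female 1 fell inside the FXR+/+ range. Per exonic base, Cd79a exceeded its partner chain Cd79b 7.96-fold in FXR+/+ male 1 and 20.3- to 77.5-fold elsewhere. It made up 61.2% of the summed CPM of the 5 B cell genes in FXR+/+ male 1 and 76.4 to 93.1% in the others. Without Cd79a the sum was 18.6 CPM in FXR+/+ male 1 and 1.48 to 4.31 CPM in the other 5 libraries.

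The exon table, which counted reads per exon, was used to see where the reads of each gene lay. It listed 1033 reads for Cd79a, of which 87.8% fell in exon 5, the last exon (chr7:24901431-24902197), where 111 bases are coding and 656 are untranslated. This exon had 186, 169 and 186 reads in FXR+/+ and 184, 80 and 102 in FXR-/-, again lowest in the FXR-/- male libraries. The 3 exons upstream had 26, 28 and 28 reads in FXR+/+ and 22, 14 and 8 in FXR-/-. Both stretches of the gene were thus lower in the 2 FXR-/- male libraries. On the CPM scale both were highest in FXR+/+ male 1 (8.38 and 1.39 CPM), with FXR+/+ female 1 next (7.93 and 1.11 CPM). Within the upstream stretch, exon 2 had 20 reads in FXR+/+ male 1 and 4 to 12 elsewhere. Exon 3 had 5 reads in FXR+/+ male 1 and 4 to 18 elsewhere. Arhgef1, the gene 1128 bases downstream, had 1740 and 1763 counts in FXR+/+ female 1 and male 1, 2648 in FXR+/+ male 2 and 1485 to 2043 in FXR-/-. Reads that run on between the genes were not tested as a source of these counts.

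Cd22 was divided along its length. Its last exon (chr7:30865404-30866662), which holds the 2 ITIM runs printed above, had 4, 25 and 1 reads in FXR+/+ and 10, 8 and 4 in FXR-/-. The next 7 exons upstream that were listed had 1, 10 and 1 reads in FXR+/+ and 2, 3 and 2 in FXR-/-. By contrast, 3 exons in the middle of the gene (numbered 10 to 12 in the exon table) had 11, 11 and 13 reads in FXR+/+ and 11, 10 and 6 in FXR-/-. FXR+/+ male 1 therefore stood high at the 3′ end of Cd22 and not in those middle exons, which held 62 of the 147 exonic reads of the gene.

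For Ms4a1 and Cd79b nearly all exonic reads lay in the last exon. The last exon of Ms4a1 had 0, 49 and 1 reads in FXR+/+ and 6, 9 and 2 in FXR-/-, and the last exon of Cd79b had 3, 18 and 3 against 5, 4 and 8. Both repeated the peak in FXR+/+ male 1. Cd37 had 22 of its 35 exonic reads in the last exon, 10 of them in FXR+/+ male 1.

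**Figure D2:**
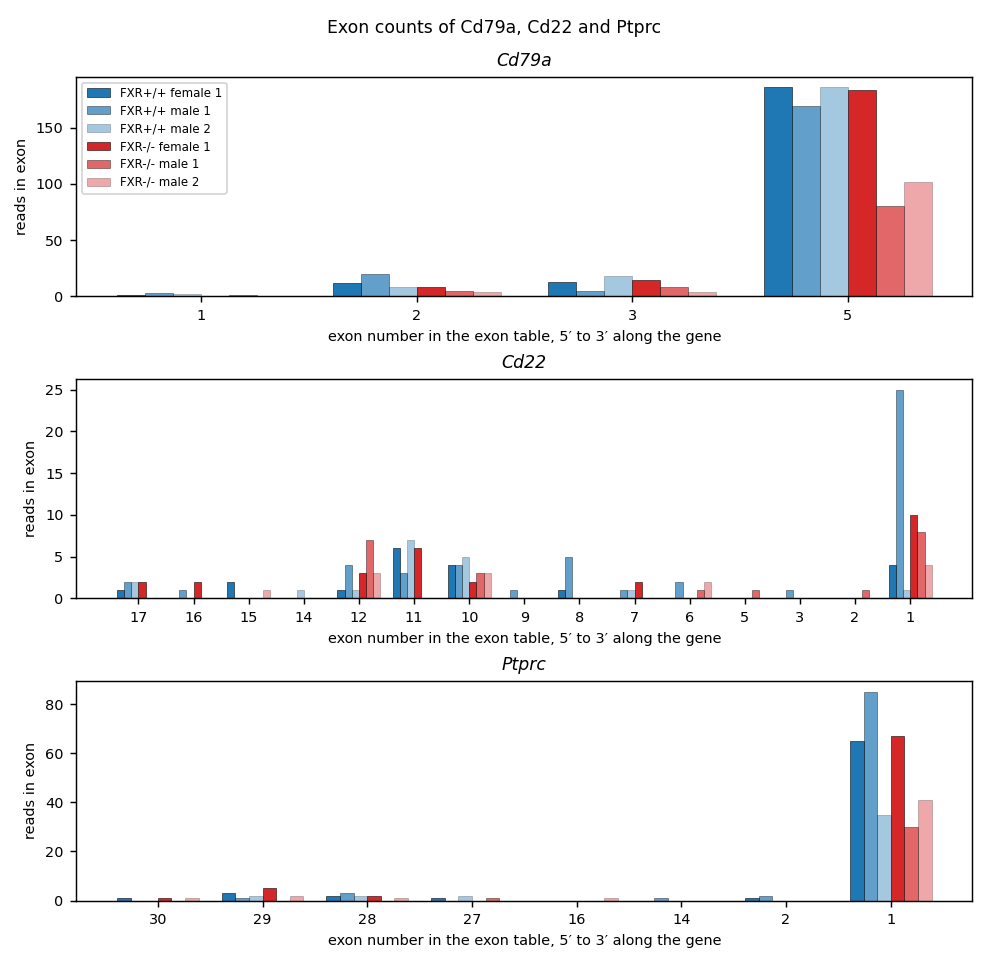
Reads counted in each listed exon (vertical axis) of Cd79a, Cd22 and Ptprc in the 6 libraries (bars; blue FXR+/+, red FXR-/-), with exons ordered 5′ to 3′ and numbered as in the exon table, where genes on the minus strand are numbered from their 3′ end. In Cd22 the last exon peaked at 25 reads in FXR+/+ male 1 while exons 10 to 12 did not, and in Cd79a exon 5 fell to 80 and 102 reads in the FXR-/- male libraries.

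The T cell chains had few counts and another order of libraries. Cd3e had 23, 16 and 4 counts in FXR+/+ and 17, 4 and 4 in FXR-/-. Cd3g had 19, 23 and 5 counts in FXR+/+ and 9, 4 and 6 in FXR-/-. Both were highest in FXR+/+ female 1 and male 1 (0.793 to 1.14 CPM), and both were at 0.252 CPM or less in FXR+/+ male 2 and the 2 FXR-/- male libraries. The counting intervals of FXR+/+ female 1 and male 1 overlapped for each gene, so the order between them was not resolved at this depth. FXR-/- female 1 came next for both, and its 0.689 CPM of Cd3e (interval 0.401 to 1.10) overlapped the intervals of both libraries above it. Cd3g did not pass the filter on low counts. Of the exonic reads of Cd3e, 37 of 40 lay in its last exon, with 16 in FXR+/+ female 1, 12 in FXR-/- female 1 and 3 or fewer in each male library, whereas Cd3g had only 3 exonic reads in all.

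Ptprc, which marks white blood cells of every kind, was the most evenly spread gene after Cd79a. The FXR+/+ libraries held 191, 301 and 104 counts (8.14, 14.9 and 3.28 CPM) and the FXR-/- libraries 251, 116 and 140 (10.2, 6.10 and 5.89 CPM). FXR+/+ male 1 was the highest, FXR-/- female 1 the next and FXR+/+ male 2, the library sequenced most deeply, the lowest. In the last exon the reads were 65, 85 and 35 in FXR+/+ and 67, 30 and 41 in FXR-/-. Scaled to library size, FXR+/+ male 1 was again the top (4.21 CPM) and FXR+/+ male 2 the bottom (1.10 CPM).

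Ltf had a profile of its own. The 3 FXR+/+ libraries held 130, 3 and 228 counts and the FXR-/- libraries 3, 41 and 4, or 5.54, 0.149 and 7.20 CPM against 0.122, 2.16 and 0.168 CPM. FXR+/+ female 1 and male 2 were high, FXR-/- male 1 was intermediate and the other 3 libraries were at or just above the limit of detection. The upper counting limit of the lowest library, FXR-/- female 1, was 0.355 CPM. FXR+/+ male 1, the library highest in B cell genes, was among the lowest in Ltf. Only 2 of the 409 Ltf counts appeared in the exon table (0.489%), against a median of 50.9% over the 14949 genes with at least 50 counts, and 2.83% of those genes were under 5%. The exon table listed 2 exons of Ltf and not its last exon, so where the Ltf reads lie was not analysed here.

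The comparison of FXR-/- with FXR+/+ islets asked whether these genes differ with the receptor. Of the 9 genes, 7 passed the filter, and none of the 7 passed edgeR's quasi-likelihood test with sex as a covariate at an adjusted p of 0.05, where 0 of 14619 genes did (0%). At an unadjusted p of 0.05, 1 of the 7, Cd79a, passed, against 10.3% of all tested genes (1511). When the sex term was exchanged for a replicate block, 23 genes passed (0.157%), and with DESeq2 170 of the 14052 genes that it gave an adjusted p passed (1.21%), none of them among the 9. The libraries of the genotypes overlapped for every one of the 9 genes, whereas they were separate for 15.4% of tested genes.

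All 7 tested genes had lower fitted values in FXR-/-, but the estimate exceeded 2 standard errors only for Cd79a and Ltf. Cd79a averaged 24.9 ± 4.73 CPM in FXR+/+ and 17.1 ± 5.43 CPM in FXR-/- (SD, n = 3 each), a log2 fold change of -0.58 (SE 0.192, edgeR unadjusted p = 0.0175, adjusted p = 0.430). Ltf averaged 4.30 ± 3.69 and 0.815 ± 1.16 CPM (SD, n = 3 each), a log2 fold change of -2.58 (SE 1.23, edgeR adjusted p = 0.491). For Cd79b, Cd22, Cd37, Cd3e and Ptprc the log2 fold changes were -1.13, -0.60, -0.66, -0.78 and -0.27, with standard errors of 0.889, 0.721, 0.887, 0.672 and 0.492 and edgeR adjusted p-values of 0.626 to 0.839. In an exact two-sided permutation test of log2(CPM + 0.01), which cannot go below p = 0.1 with 3 against 3 libraries, the 9 genes gave p = 0.2 to 1.

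The direction of 4 of these differences rested on FXR+/+ male 1. Without that library the log2 fold change turned to 0.57 for Cd79b, 0.66 for Cd22, 1.23 for Cd37 and 0.61 for Ptprc, none past the test (edgeR adjusted p = 0.275 to 0.583). Cd3e moved to -0.19 and Cd79a to -0.35, and Ltf to -3.37. Ltf moved most without FXR-/- male 1, reaching -4.94 on the log2 scale (edgeR adjusted p = 0.651), and without FXR+/+ male 2 it was -1.55.

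**Figure D3:**
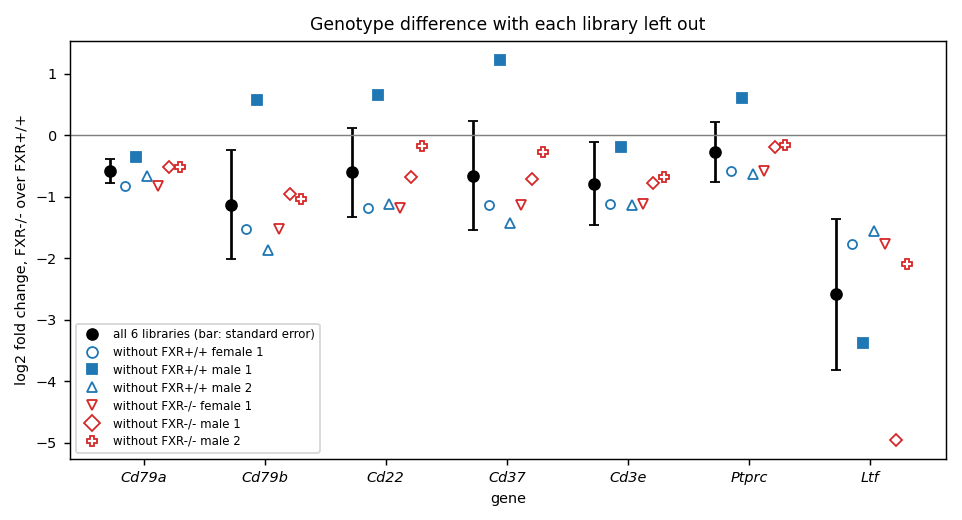
Log2 fold change, FXR-/- over FXR+/+, of the 7 tested genes with all 6 libraries (black, bar: standard error) and with each library left out in turn (blue symbols, an FXR+/+ library left out; red symbols, an FXR-/- library left out). Without FXR+/+ male 1 (filled squares) Cd79b, Cd22, Cd37 and Ptprc moved above 0, and Cd79a stayed between -0.82 and -0.35 in every case.

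Paired by sex and replicate number, the levels in FXR-/- relative to FXR+/+ likewise did not run one way. For Cd79b the ratio was 0.887 in the female pair, 0.160 in the male 1 pair and 2.67 in the male 2 pair. Ptprc had ratios of 1.25, 0.409 and 1.79. Ltf fell from 130 to 3 counts and from 228 to 4 in the female and male 2 pairs and went from 3 to 41 in the male 1 pair. Cd79a was below 1 in all 3 pairs, at 0.920, 0.475 and 0.699.

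Between the sexes, 8 genes of 14619 passed (0.0547%) and none was among the 7. Cd3e had the largest female over male difference relative to its error, a log2 fold change of 1.49 (SE 0.657, edgeR adjusted p = 0.677), and rests on 17 to 23 counts in the female libraries and 4 to 16 in the male ones. For the difference between the sexes in the genotype effect no gene passed (0% of 14619, edgeR; 217 at an unadjusted p of 0.05; DESeq2 called 3, none of the 9).

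Genes of the same cells that are not among the 9 showed how far each profile extended. Of 20 further B cell genes, 15 were highest in FXR+/+ male 1, as against 13.2% of all tested genes. Cr2, a complement receptor of B cells, had 93 counts there and 5 to 17 elsewhere. The transcription factors Pax5, Spib and Pou2af1, which set and maintain B cell identity, had 31, 83 and 106 counts there, and 0 to 13, 0 to 12 and 3 to 10 elsewhere. Tnfrsf13c, the receptor of the survival factor BAFF, had 53 counts against 0 to 8, and Fcer2a, the low-affinity IgE receptor CD23, 58 against 1 to 16. Ralgps2, Cd72, Ebf1 and Blnk, the 4 most abundant tested genes of the list, were less uneven, with 295 to 610, 60 to 130, 69 to 110 and 23 to 55 counts. On the log2(CPM + 0.01) scale, the median gene of the list in FXR+/+ male 1 lay 2.64 above the other 5 libraries' median. The value was 2.49 for the 5 B cell genes and 0.00 for all tested genes. Only 7 of the 20 listed genes were tested, so the low-count genes of the list have no counterpart among all tested genes. FXR-/- male 1, whose acinar share was as high, gave 0.79 for the list, the next highest value. There 9 of the 20 genes lay more than 1 above the other 5 libraries' median, against 16 in FXR+/+ male 1. A link between acinar share and B cell RNA was not tested.

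None of the 7 further B cell genes that were tested passed in either direction between the genotypes, with a median log2 fold change of -0.08 against 0.01 for all tested genes. Without FXR+/+ male 1 the median of the 7 tested then was 0.45, and again none passed. A list of B cell receptor signalling genes was less uneven. It includes surface proteins and shares Cr2, Cd72 and Blnk with the further B cell list. On the log2(CPM + 0.01) scale, its median gene was 0.34 higher in FXR+/+ male 1 than in the other 5 libraries. Of 20 tested none passed, with a median log2 fold change of 0.07, and Prkcb (a protein kinase C that is also abundant in islets), Cd81 (a tetraspanin), Ptpn6 (the phosphatase recruited by Cd22) and Bcl10 had the most reads.

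Of the 6 plasma cell genes with counts, 3 were highest in FXR+/+ male 1, and the median gene was 1.01 higher there than in the other 5 libraries on the log2(CPM + 0.01) scale. Jchain, which joins secreted IgA and IgM, had 27, 327 and 86 counts in FXR+/+ and 79, 69 and 163 in FXR-/-, highest in FXR+/+ male 1 with FXR-/- male 2 next. Irf4, a transcription factor of plasma cells and activated lymphocytes, had 49 counts in FXR+/+ male 1 and 3 to 15 elsewhere, and Mzb1, a chaperone of antibody-secreting cells, had 25 and 9 to 16. Derl3 and Prdm1, which exocrine and other secretory cells also express, had 241 to 628 and 205 to 384 counts, and both were highest in FXR-/- male 1 on the CPM scale. Tnfrsf17 had 2 counts in all. None of the 5 tested plasma cell genes passed.

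Of 22 further T cell genes, 12 were highest in FXR+/+ female 1 and 8 in FXR+/+ male 1, as against 13.4% and 13.2% of all tested genes. Cd8a and Cd8b1, the chains of the CD8 co-receptor, had 27 and 28 counts in FXR+/+ female 1 and 3 to 7 in every other library. Cd4, the other co-receptor, had 18 and 23 counts in FXR+/+ female 1 and male 1, 14 in FXR-/- female 1 and 4 to 6 in the rest. Cd3d, which lies beside Cd3g, had 9, 5 and 0 counts in FXR+/+ and 6, 2 and 1 in FXR-/-. Tcf7, a transcription factor of naive and memory T cells, had 62 counts in FXR+/+ female 1, 37 in FXR+/+ male 1 and 16 to 24 in the others. None of the 10 tested passed (median -0.32), and of 12 tested signalling genes of the T cell receptor none passed either (median 0.07, with Plcg1, Csk, Nfatc2 and Nck1 the most abundant). Skap1, Lck, Il7r and Tcf7 were the most abundant tested genes of the T cell list. Skap1, an adaptor protein, had 581 to 1172 counts, more than any receptor chain.

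Among genes of lymph node tissue, some set FXR+/+ female 1 and male 1 apart from each other, in either direction, and others were closer. Glycam1, a mucin of high endothelial venules, had 234 counts in FXR+/+ female 1 and 1 to 8 in every other library. Ccr7, the homing receptor of naive lymphocytes, had 101 counts in FXR+/+ female 1, 58 in FXR+/+ male 1, 28 and 22 in the FXR-/- male libraries and 1 and 4 in the remaining 2. Cxcl13, the chemokine that draws B cells into follicles, had 68 counts in FXR+/+ male 1 and 8 to 15 elsewhere. Madcam1 ran opposite to Glycam1, with 7 counts in FXR+/+ female 1 and 25 in FXR+/+ male 1. Ccl19 was higher in FXR+/+ female 1, with 43 counts against 15 in FXR+/+ male 1. Ltb (1.24 and 1.78 CPM) and Prox1 (41.9 and 41.6 CPM) were closer between these libraries. Whether lymph node pieces were carried along with the islets was not tested. None of the 7 tested genes of this list passed with edgeR (median -0.70). Lyve1, a receptor of lymphatic endothelium, was the only one that DESeq2 called, with 543, 416 and 747 counts in FXR+/+ and 333, 289 and 304 in FXR-/- (log2 fold change -0.70, SE 0.115, edgeR adjusted p = 0.225).

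**Figure D4:**
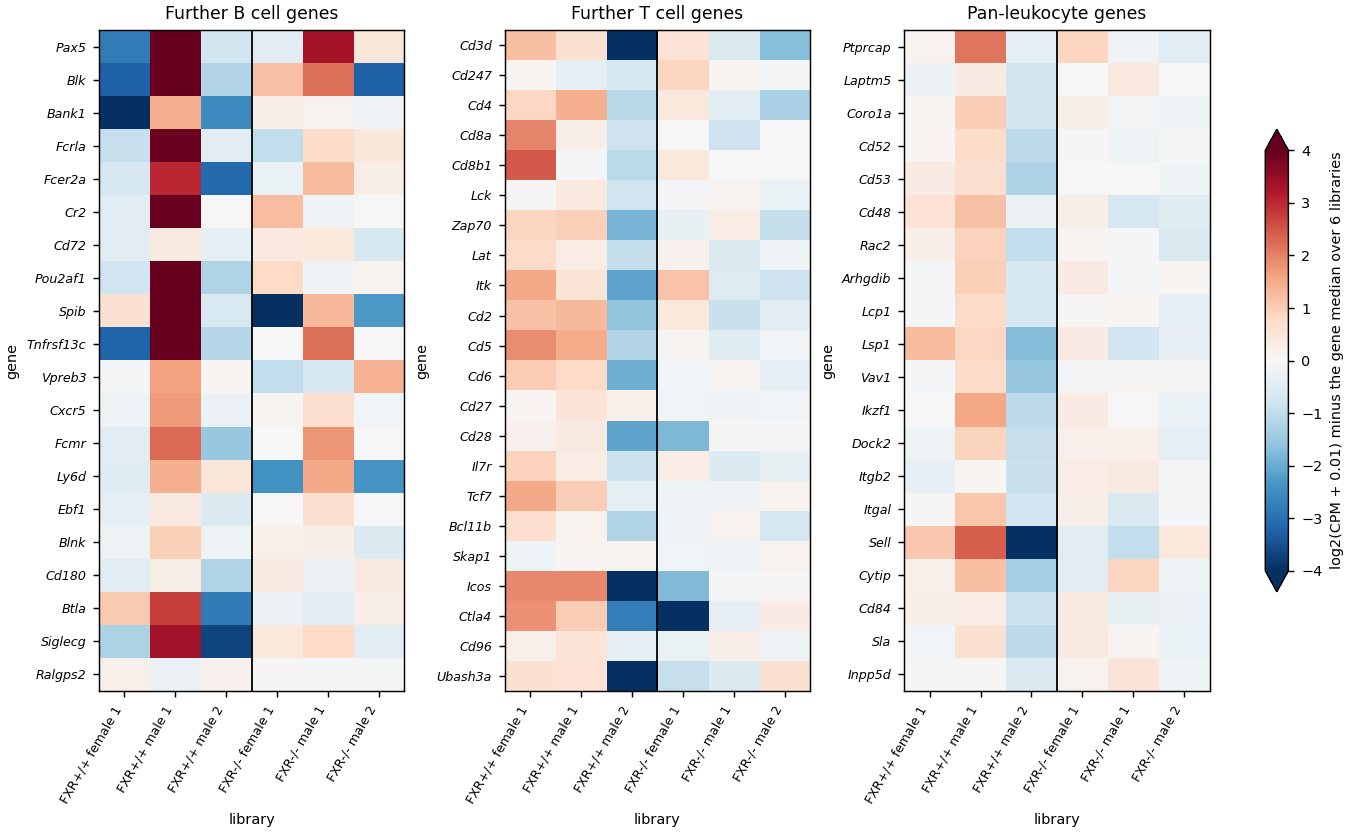
Further B cell, T cell and pan-leukocyte genes (rows) in the 6 libraries (columns), coloured by log2(CPM + 0.01) minus the gene's median over the libraries, red above and blue below, with the ends of the scale at 4. FXR+/+ male 1 was the highest library for 15 of 20 B cell and 15 of 20 pan-leukocyte genes, and FXR+/+ female 1 for 12 of 22 T cell genes.

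The 20 pan-leukocyte genes, summed, had the same highest and lowest library as Ptprc. Between these the order differed, with FXR-/- male 1 (79.6 CPM) level with FXR-/- female 1 (79.4 CPM). FXR+/+ male 1 was highest for 15 of them, and their summed level was 122 CPM there, 40.8 CPM in FXR+/+ male 2 and 64.4 to 79.6 CPM in the other 4. Lcp1, Laptm5, Coro1a and Arhgdib had the most reads among the tested genes. Of the 19 tested none passed, with a median log2 fold change of -0.13 that became 0.49 without FXR+/+ male 1. The 12 macrophage genes were spread differently, with 169 CPM in FXR+/+ male 2 and 228 to 264 CPM in the others, and FXR+/+ male 1 (254 CPM) within the range. Of these 12 none passed the adjusted test and 6 were higher in FXR-/- at an unadjusted p of 0.05, among them C1qa, C1qb and C1qc, the chains of complement C1q, as against 6.18% of all tested genes. That count was 3 to 6 with a male library left out. It was 0 without FXR+/+ female 1 or without FXR-/- female 1, where the remaining female adds nothing to the genotype comparison. Without either female library 11 of the 12 were higher in FXR-/-, with a median log2 fold change of 0.38. With all libraries 9 were higher and the median was 0.34. All 10 natural killer cell genes were too low to be tested. Gzma, a granzyme, reached 31 counts in FXR-/- female 1 and 1 to 10 in the others.

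Antigen presentation genes fell into separate sets. H2-DMb2 and H2-Ob, class II chaperones prominent in B cells, had 85 counts each in FXR+/+ male 1 and 6 to 17 and 10 to 25 elsewhere, while the abundant class II genes Cd74, H2-Ab1, H2-Eb1 and H2-Aa, which macrophages also express, were highest in FXR-/- male 1. None of 9 tested passed (median 0.10).

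Ranked by Pearson r over the 6 libraries with the mean log2(CPM + 0.01) of the 5 B cell genes, the closest of 1750 variable genes were H2-DMb2 (r = 0.996), Cldn10 (0.983), Srpk3 (0.978), Cxcr5 (0.974), Chst3 (0.966), Lrmp (0.957), Cxcl13 (0.950), H2-Ob (0.949), Cnga3 (0.945) and Grap (0.944). All 10 were highest in FXR+/+ male 1. With 6 points, of which 1 lies far from the rest, such r values describe that library. The genes closest to Ptprc were Ly9 (0.996), Coro1a (0.976), Tbc1d10c (0.970), Slc22a2 (0.970) and Cd300a (0.970). Cd79a was ranked separately after its values were seen, and its closest genes were Was (0.978), Casp1 (0.975), Anks1b (0.973), Cplx3 (0.963) and 6720483E21Rik (0.961). Was and Casp1 are expressed in white blood cells, whereas Anks1b and Cplx3 are known from neurons. No gene of the B cell lists was among them, but most could not be ranked. The ranking left out the genes followed here and untested genes such as Cr2, Pax5, Spib and Pou2af1.

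The genes closest to Ltf were Lcn2 (r = 0.989), Pglyrp1 (0.965), Mdm1 (0.948), Fcgbp (0.948) and Spink4 (0.940). Lcn2, a siderophore-binding protein of neutrophil granules and stressed epithelia, had 98, 10 and 109 counts in FXR+/+ and 14, 35 and 14 in FXR-/-. Pglyrp1, a peptidoglycan-binding protein, had 43, 7 and 41 against 6, 13 and 7. Fcgbp and Spink4, known from mucus-secreting epithelium, had 96, 36 and 273 against 43, 86 and 43, and 36, 4 and 25 against 6, 16 and 7. Mdm1 was abundant, with 4450, 1681 and 4655 counts against 1623, 2144 and 1696. For each of the 5, FXR+/+ female 1, FXR+/+ male 2 and FXR-/- male 1 were the highest 3 libraries on the CPM scale. This follows from their choice by likeness to Ltf in the same libraries and is no separate result.

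Of the neutrophil granule list, Lcn2 was in that pattern, whereas S100a8, S100a9 and Ngp were not. Which cells the Ltf reads came from was not tested. S100a8, S100a9 and Ngp had 0 counts in FXR+/+ female 1 and male 2, the 2 libraries highest in Ltf, and 17, 37 and 20 counts in FXR-/- male 2, where Ltf had 4. Elane, a granule protease, had 6 counts in FXR-/- male 2 and 0 elsewhere. Of the 14 counted neutrophil granule genes, 8 and 10 were at 0 in FXR+/+ female 1 and male 2. The summed level of the list ranged from 2.53 to 5.37 CPM in FXR+/+ and from 2.07 to 5.60 CPM in FXR-/-, and most of it was Lcn2 in the libraries high in Ltf. Only Lcn2 and Csf3r of this list were tested, and neither passed (log2 fold change -1.47, SE 0.750, and 0.16, SE 0.351; edgeR adjusted p = 0.506 and 0.871).

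**Figure D5:**
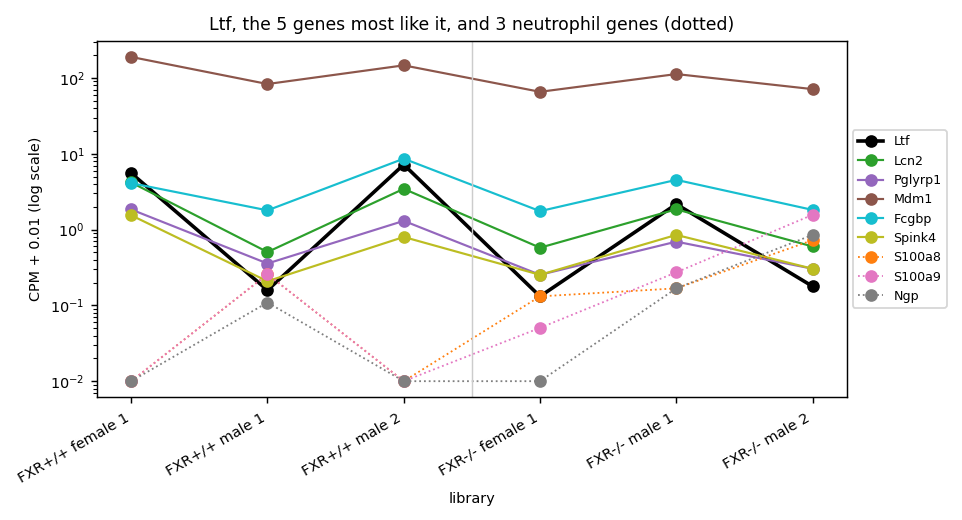
Level (CPM + 0.01, log axis) of Ltf (black), the 5 genes most like it and 3 neutrophil genes (dotted) in the 6 libraries; lines only join the points of a gene. Ltf and the 5 genes were highest in FXR+/+ female 1, FXR+/+ male 2 and FXR-/- male 1, and in the first 2 of these S100a8, S100a9 and Ngp were at 0 counts.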

How the data were processed

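RNA-seq was measured in islets of 3 FXR+/+ and 3 FXR-/- libraries. The authors deposited whole-number counts per gene and per exon, and HISAT is named in the submitters' processing notes; its version, the counting tool and the annotation are not given in the sources used here. The authors' tables of their own FXR-/- against FXR+/+ comparison (fold changes and p-values) were not used. Exon positions are those of the deposited exon table, and 37 of its 42 exons of these genes matched exons of GENCODE vM21 (GRCm38) at both ends.

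Genes were filtered with filterByExpr (minimum count 10), scaled by TMM and tested with edgeR 4.0.16 (quasi-likelihood, sex and genotype) in R 4.3.3, with Benjamini-Hochberg adjustment over 14619 genes at a threshold of 0.05. DESeq2 1.42.0 was an alternative. The fits were tested on simulated data with 100 genes changed 2-fold and 100 changed 4-fold. With edgeR 86 and 99 of them were recovered, beside 27 false calls. With DESeq2 88 and 97 were recovered, beside 34 false calls, so calls by either tool include false ones. The changed genes were drawn from better-counted genes, a set without Cd3e and the untested Ms4a1 and Cd3g. The simulation held no effect shared by the libraries of a pair. The recovered numbers therefore do not measure how often a change in the genes followed here would be found. Likeness was ranked among tested genes with an SD of at least 0.5 on the log2 scale. The genes and lists were chosen with earlier results of these data known. All 9 genes were named, with genes past the test and up to 4 most abundant per list. Others (such as Cr2, Pax5, Spib, Pou2af1, Tnfrsf13c, Fcer2a, Jchain, Mzb1, Tnfrsf17, Cd8a, Cd8b1, Cd4, Cd3d, Glycam1, Ccr7, Cxcl13, Lyve1, Gzma and the neutrophil genes) were chosen after their values were seen. Immunoglobulin and T cell receptor constant genes were not analysed here, and 1 gene of the B cell lists is not reported here.

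Libraries of the same sex and replicate number deviated together from their genotype means (Pearson r across genes 0.359, 0.351 and 0.307). Other combinations gave 0.00887 or less, partly because deviations within a genotype cancel out. The female pair holds the only female library of each genotype, so pairing and sex cannot be told apart there. Sex and number were taken to pair the libraries, and a replicate block was fitted as an alternative.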

Additional observations from a re-analysis of the deposited data

How the results depend on the processing

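The count of genes that changed with genotype was 0 in the main fit and in 15 of 18 alternatives, including every library left out in turn (0 to 0). It was 23 with the replicate block in place of sex, 170 with DESeq2 and 4 with exon counts summed per gene, and none of the 9 genes was called in any. The count that changed with sex was 8, 7 with library size alone and 83 with DESeq2, and the count that differed in the genotype effect between the sexes was 0, and 3 with DESeq2. Of 118 alternative values for the 7 tested genes, 114 kept the direction and stayed short of the threshold. The 4 that changed sign were those of Cd79b (0.57), Cd22 (0.66), Cd37 (1.23) and Ptprc (0.61) without FXR+/+ male 1. The replicate block changed no call for the tested genes, and the log2 fold change of Cd79a under it was -0.56 (edgeR adjusted p = 0.185, range over its alternatives 0.185 to 0.851).

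Ms4a1 and Cd3g could be fitted without the filter, with log2 fold changes of -2.12 and -1.21 (edgeR adjusted p = 0.668 and 0.628). A minimum of 10 counts in every library left no value for Cd79b, Cd3e and Ltf, and the exon table gave none for Cd79b, Cd37, Cd3e and Ltf. Leaving out an FXR female library leaves 1 female in the fit. Low counts limit Cd3e and Cd3g (4 to 23 per library), Ms4a1 (0 to 10 outside FXR+/+ male 1) and, in 3 libraries, Ltf (3 or 4), and intervals cover counting error only.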
